A study of Mus musculus with 6 samples.

Results

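The collagen gene family was followed in spheres from mouse mammary tumors, across all genes whose symbol has the form Col, a number, a and a number. Probes were assigned to genes through their RefSeq accession. Of 44 such symbols in the mouse gene table, 43 had a probe on the array, 63 probes in all, among 20660 genes with a probe. Col12a1 had no probe that mapped by this rule. Of the 43 genes, 36 were tested, and the other 7 were too dim and are described further below.

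Collagens are proteins of 3 chains wound into a triple helix, built from repeats of glycine and 2 further residues. Fibrillar collagens form the cables of connective tissue and are made mainly by fibroblasts. Type IV collagen forms the sheet of basement membranes, type VI forms beaded filaments, FACIT collagens decorate the surface of fibrils, and transmembrane collagens sit in the cell membrane. In the mammary gland, fibroblasts supply most interstitial collagen, while epithelial cells rest on a basement membrane and anchor to it through hemidesmosomes.

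The spheres, floating clusters of cells, were made from mammary tumors that arose in mice with either 1 intact FRS2beta allele (hetero) or none (knockout), with 3 arrays per genotype. FRS2beta, encoded by Frs3, is an adaptor that docks on receptor tyrosine kinases. The medium of all 6 was DMEM/F12 supplemented with B27, the growth factors EGF and bFGF (20 ng/mL each) and 2 mg/mL of heparin. The hetero group is the comparison group and itself carries 1 disrupted allele, so no wild-type sample enters. The strain, the age, the oncogene or agent behind the tumors and the number of animals are not given in the sources used here. Whether the replicates are separate animals is likewise not given, so the p-values rest on a spread that may be technical.

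Signals below are log2 processed intensities minus the 75th percentile of the array, so that 0 is that percentile, and differences are knockout minus hetero. The 75th percentile of the raw processed signal lay between 404 and 416 for hetero and between 465 and 487 for knockout spheres. The number of arrays limits the precision, and the standard error of the difference had a median of 0.041 over all genes. A gene is called when its limma p-value, adjusted by Benjamini-Hochberg over 15838 genes, is under 0.05. The Frs3 probe gave -7.30, -4.64 and -6.01 on the hetero arrays and -7.88, -7.95 and -7.36 on the knockout arrays. It was well above background on 1 of 3 hetero arrays and on 0 of 3 knockout arrays, which is too dim to check the genotype labels. RNA of a bulk sphere culture does not separate fewer cells of a type from less RNA per cell, and this holds for every difference below.

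Collagen genes moved in both directions. Col17a1, Col7a1, Col4a5 and Col4a6 (the last on 1 of 2 probes), collagens of the epithelial basement zone, were higher in knockout spheres. Several short-chain and FACIT collagens were higher too. Col4a1 and Col4a2, also of basement membranes, rose by 1.1-fold and 1.11-fold and lost their calls under median scaling, and Col18a1 fell. The interstitial fibril and beaded filament collagens were mostly slightly lower, though Col1a1, Col5a2 and the 3 main type VI chains turned higher with spike-in scaling. Col6a5, Col26a1, Col14a1 and Col23a1 were lower by more than 2-fold. Of the 36 tested collagen genes, 17 were higher and 15 lower in knockout spheres, 88.9% together, against 60.4% of all genes tested (27.9% higher and 32.5% lower). Collagens changed by at least 2-fold made up 15 of 36 (41.7%), 11 higher and 4 lower, beside 10.1% of all genes. The 3 hetero and 3 knockout arrays did not overlap in 32 of 36 collagen genes, against 68.9% of all genes, and these were the 32 called. The median log2 fold change of the family was -0.05, near the -0.03 of all genes.

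Because 4 collagen genes, Col2a1, Col10a1, Col9a3 and Col6a5, passed the filter through 1 genotype alone, the counts were also taken over the 32 collagen genes above background on all 6 arrays. Of these 28 were called, 14 higher and 14 lower (87.5%, beside 63.4% of all genes so filtered), and 11 changed by at least 2-fold (34.4%, beside 8.04%). Of these 11, 8 were higher and 3 lower.

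**Figure D1:**
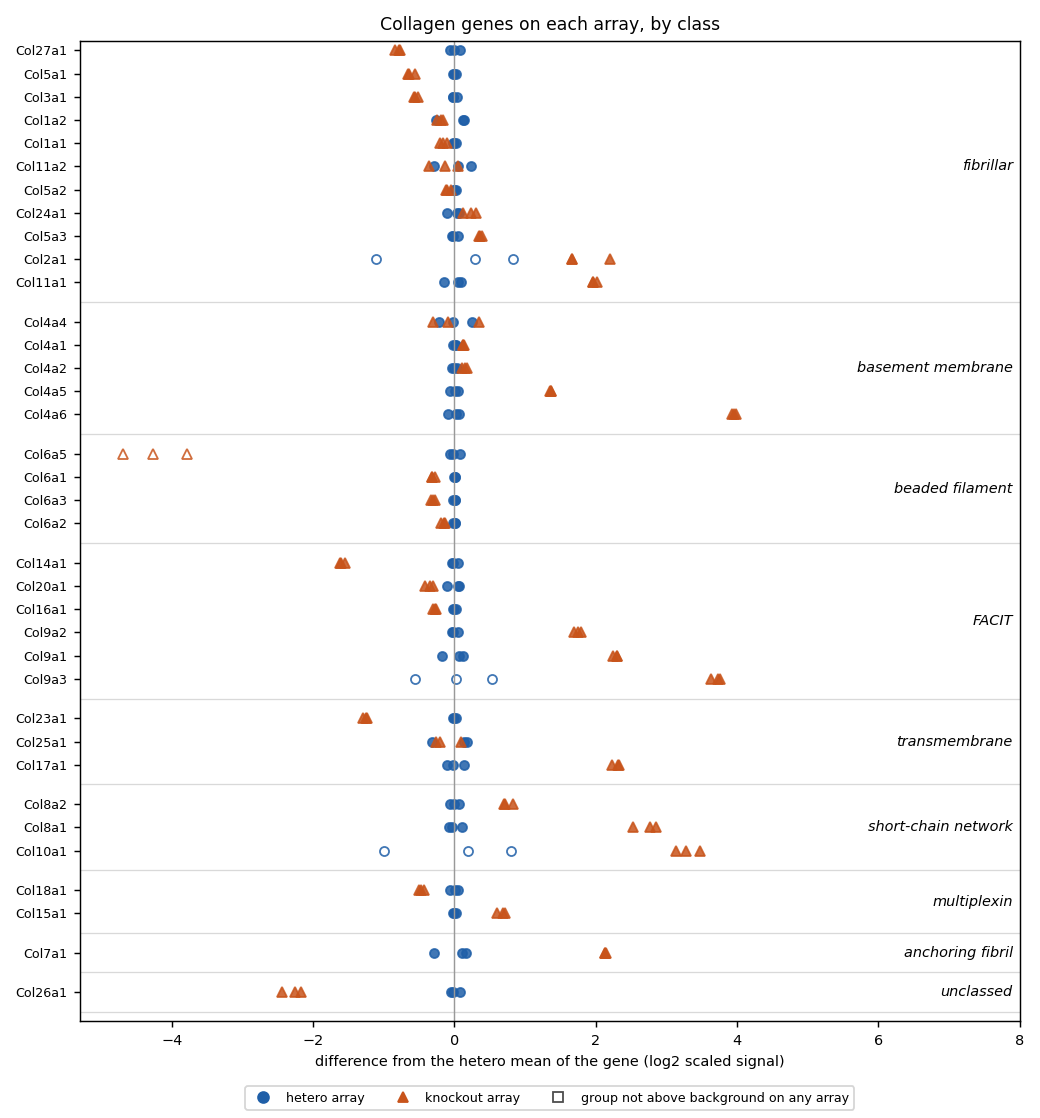
Difference of each array from the hetero mean of the same gene (log2 scaled signal, horizontal axis) for the 36 tested collagen genes, grouped by class. Circles are the 3 hetero arrays and triangles the 3 knockout arrays, open where no array of that genotype was well above background; in Col4a6 the knockout triangles lie near 4 and in Col6a5 they lie below -3.

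Among the fibrillar collagens, the chains of types I, III and V, which make the fibrils of connective tissue, each differed by less than 2-fold. Of 11 tested members of the class, 5 were lower, 4 higher and 2 not called, with a median log2 fold change of -0.15. The class thus had 45.5% lower and 36.4% higher, beside 32.5% and 27.9% of all genes tested. Among the higher, Col2a1 passed the filter through the knockout arrays alone, so a rise was the only change it could show. Col3a1, the single chain of type III collagen, gave 8.83, 8.83 and 8.89 on the hetero arrays and 8.34, 8.29 and 8.28 on the knockout arrays. All knockout arrays lay under all hetero arrays, and the gene fell by 0.55 ± 0.030 (SE, adjusted p = 4.51e-05).

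Col1a1 and Col1a2 encode the partner chains of type I collagen, the main fibril protein. The scaled signal of Col1a1 was 7.60, 7.58 and 7.62 on the hetero arrays and 7.50, 7.40 and 7.44 on the knockout arrays, lower by 1.11-fold (adjusted p = 0.0106). That of Col1a2 was 9.35, 8.96 and 9.34 on the hetero arrays and 9.06, 8.97 and 9.02 on the knockout arrays, where hetero replicate 2 lay below all 3 knockout arrays. The 2 groups of Col1a2 therefore overlapped and the gene was not called (log2 difference -0.20 ± 0.11, adjusted p = 0.179). Without hetero replicate 2 the difference was -0.33 and was called (adjusted p = 0.00226). For Col1a1 the sign depended on the scaling, with 0.064 under quantile scaling and 0.26 under spike-in scaling.

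Type V collagen, which sits inside type I fibrils and limits their width, did not move as a unit. Col5a1 fell by 0.62 ± 0.033 and Col5a2 by 0.092 ± 0.026 (adjusted p = 0.0255), while Col5a3 rose by 0.37 ± 0.032 (adjusted p = 0.000289). The Col5a2 call was lost without any one of hetero replicates 1, 2 and 3 or knockout replicates 1 and 3 (adjusted p 0.0548 to 0.0795). Col27a1, a fibrillar collagen of cartilage and other tissues, fell by 0.80 ± 0.042 and Col24a1 rose by 0.22 ± 0.068 (adjusted p = 0.0367). The Col24a1 call was lost without hetero replicate 1 or 2 or knockout replicate 2 or 3 (adjusted p 0.0659 to 0.102).

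The larger rises in this class were in collagens best known from cartilage. Col11a1, a chain of type XI collagen that seeds thin fibrils, gave -3.31, -3.35 and -3.56 on the hetero arrays and -1.45, -1.39 and -1.45 on the knockout arrays. It rose 3.94-fold (adjusted p = 1.01e-05), while Col11a2, which encodes another chain of the same type, was not called (log2 difference -0.15 ± 0.17, adjusted p = 0.491). Col2a1, the type II chain of cartilage fibrils, gave -7.08, -5.68 and -5.15 on the hetero arrays and -3.77, -4.30 and -4.31 on the knockout arrays. No hetero array was well above background for Col2a1, so its rise is a bound. The bound compares the knockout mean with a raised hetero mean. In the latter each array's value is raised, where needed, to the dimmest signal still well above background. The bound comes to at least 2.3-fold. The adjusted p of limma, 0.028, tests the unbounded log2 difference of 1.84, and each p beside a bound below likewise tests that gene's unbounded difference. Over the alternatives the lowest Col2a1 log2 difference was 0.23. The Col2a1 call was lost without hetero replicate 2 or any one of knockout replicates 1, 2 and 3 (adjusted p 0.0538 to 0.085).

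Beaded filament collagen, type VI, was lower in each of the 4 tested genes, with a median log2 fold change of -0.30. Over all genes tested, 32.5% were lower. Col6a5 passed the filter through the hetero arrays alone, so a fall was the only change it could show. Col6a1, Col6a2 and Col6a3 encode the chains of the common type VI molecule, and they fell by 0.31 ± 0.023, 0.16 ± 0.025 and 0.30 ± 0.023. Their adjusted p was 0.000165, 0.00305 and 0.000189, and their spread between arrays was small, with no overlap of the genotypes in any of them. With quantile scaling the calls of Col6a1 and Col6a2 were lost (adjusted p = 0.0509 and 0.553), and with median scaling that of Col6a2 (adjusted p = 0.0971). The sign of the 3 falls turned under spike-in scaling, where the differences were 0.11, 0.26 and 0.12.

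Col6a5, an alternative long chain that can take the place of Col6a3, fell by much more. Its signal was -1.90, -2.00 and -2.05 on the hetero arrays and -5.76, -6.67 and -6.25 on the knockout arrays, and no knockout array was well above background. The fall was therefore at least 12.6-fold (adjusted p = 4.83e-05). With normexp background correction, whose offset of 50 shrinks the folds of dim probes by construction, the log2 difference was -1.46. A second Col6a5 probe was not above background on any array. The related long chains Col6a4 and Col6a6 were too dim to test.

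Basement membrane collagen, type IV, was called higher in 4 of 5 tested genes and lower in none. Over all genes tested, 27.9% were higher and 32.5% lower. Type IV chains assemble in 3 kinds of molecule, and the genes are described here in pairs. The ubiquitous chains Col4a1 and Col4a2 differed little. Col4a1 gave 6.59, 6.60 and 6.56 on the hetero arrays and 6.71, 6.73 and 6.71 on the knockout arrays, a rise of 1.1-fold (adjusted p = 0.00377). Col4a2 gave 6.44, 6.48 and 6.41 on the hetero arrays and 6.59, 6.56 and 6.62 on the knockout arrays, a rise of 1.11-fold (adjusted p = 0.00922). The groups did not overlap in either gene. Both calls were lost under median scaling (adjusted p = 0.109 and 0.107).

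Col4a5 and Col4a6, whose chains form the third kind of type IV molecule, found beneath epithelia and smooth muscle, rose much more. Col4a5 gave 0.20, 0.087 and 0.16 on the hetero arrays and 1.51, 1.51 and 1.49 on the knockout arrays, a 2.57-fold rise (adjusted p = 2.83e-06). Col4a6 gave -2.70, -2.80 and -2.65 on the hetero arrays and 1.22, 1.24 and 1.27 on the knockout arrays on the probe that was brighter over the 6 arrays, a 15.6-fold rise (adjusted p = 3.25e-07). With 1 probe per gene this was the largest rise among the collagen genes with signal on both sides. In hetero spheres this probe was the dimmer of 2 (mean -2.72, beside -1.03), so its knockout signal decided its choice. The other Col4a6 probe showed no such rise. It was above background on all 6 arrays at -1.03 ± 0.14 in hetero and -1.09 ± 0.093 in knockout spheres (SD, n = 3 each), a log2 difference of -0.052 ± 0.087 (SE, adjusted p = 0.661 over all probes). Both probes carry the same transcript accession, so the Col4a6 rise rests on 1 of 2 probes. With the probes averaged the log2 rise was 1.95, under the 2.71 of Col8a1 and the 2.14 of Col7a1. The remaining pair, Col4a3 and Col4a4, known from kidney and other specialised membranes, gave no call. Col4a4 differed by -0.015 ± 0.20 (adjusted p = 0.957), its groups overlapped, and Col4a3 was too dim to test.

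Type IV genes lie in head-to-head pairs that are transcribed in opposite directions. In the RefSeq promoter table (build GRCm38.p6) the annotated starts of Col4a1 and Col4a2 on chromosome 8 lie 21 bases apart, and those of Col4a5 and Col4a6 on chromosome X lie 1343 bases apart. The members of each pair moved in the same direction, by nearly the same amount in the first pair (log2 differences 0.13 and 0.15) and by unequal amounts in the second (1.36 and 3.96, the latter on 1 of 2 probes).

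Collagens of the epithelial attachment zone rose. Col17a1 encodes the transmembrane collagen of hemidesmosomes, the rivets that hold basal epithelial cells to their basement membrane. It gave -1.84, -2.00 and -2.08 on the hetero arrays and 0.25, 0.35 and 0.34 on the knockout arrays, a 4.88-fold rise (adjusted p = 5.80e-06). Col7a1 encodes the anchoring fibril that ties the basement membrane to the tissue below. It gave 1.85, 1.45 and 1.90 on the hetero arrays and 3.88, 3.86 and 3.87 on the knockout arrays, with hetero replicate 2 the lowest array, and rose 4.4-fold (adjusted p = 6.31e-05). In both genes every knockout array lay well above every hetero array.

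The sequences just upstream of Col7a1 and Col17a1 are shown with those of the other strong risers Col9a2 and Col8a1, and of Col3a1 as a gene that fell, all taken from the collagens named here whose window overlaps no annotated gene. Each holds the 250 bases before the annotated start, 5′ to 3′ on the strand of the gene, from RefSeq on GRCm38.p6. Capitals mark matches on either strand to 3 short core promoter motifs. These are TATAAA, the TATA box core, the CCAAT box spelled CCAAT, and the GC box core GGGCGG, none of which overlaps another in these windows. The positions are chr9:108953336-108953585 on the plus strand, chr19:47692043-47692292 on the minus strand, chr4:121039316-121039565 on the plus strand, chr16:57754738-57754987 on the minus strand and chr1:45311288-45311537 on the plus strand.
Col7a1: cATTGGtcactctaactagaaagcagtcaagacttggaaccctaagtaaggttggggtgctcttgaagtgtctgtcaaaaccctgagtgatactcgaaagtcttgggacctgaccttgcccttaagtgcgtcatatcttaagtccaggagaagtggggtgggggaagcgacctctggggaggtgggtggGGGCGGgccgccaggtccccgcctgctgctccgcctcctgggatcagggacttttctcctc
Col17a1: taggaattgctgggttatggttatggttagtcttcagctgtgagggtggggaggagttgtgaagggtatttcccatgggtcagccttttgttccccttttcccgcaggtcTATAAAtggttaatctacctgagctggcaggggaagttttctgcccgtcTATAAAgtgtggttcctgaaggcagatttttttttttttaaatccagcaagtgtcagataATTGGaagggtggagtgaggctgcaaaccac
Col9a2: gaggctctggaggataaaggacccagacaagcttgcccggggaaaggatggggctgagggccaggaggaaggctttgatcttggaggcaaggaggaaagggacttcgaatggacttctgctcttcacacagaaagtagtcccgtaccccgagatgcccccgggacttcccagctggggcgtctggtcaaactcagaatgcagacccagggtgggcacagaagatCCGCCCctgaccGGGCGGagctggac
Col8a1: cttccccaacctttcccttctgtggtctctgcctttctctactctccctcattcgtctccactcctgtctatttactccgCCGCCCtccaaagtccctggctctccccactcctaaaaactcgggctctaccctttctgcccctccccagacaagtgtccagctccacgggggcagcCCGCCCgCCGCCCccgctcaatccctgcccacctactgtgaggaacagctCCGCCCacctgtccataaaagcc
Col3a1: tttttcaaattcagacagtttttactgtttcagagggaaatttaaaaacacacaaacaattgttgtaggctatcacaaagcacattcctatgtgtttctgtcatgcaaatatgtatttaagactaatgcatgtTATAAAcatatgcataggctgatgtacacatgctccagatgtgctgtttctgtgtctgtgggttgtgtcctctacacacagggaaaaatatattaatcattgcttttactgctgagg

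The risers do not share one promoter type in these letters. Col17a1 holds 2 TATAAA matches and 1 CCAAT match and no GGGCGG. Col7a1 holds 1 CCAAT and 1 GGGCGG match, Col9a2 holds 2 GGGCGG matches, Col8a1 holds 4 of them, and Col3a1 holds a single TATAAA. Over the 38 windows of 35 collagen genes in the table, 57.9% held GGGCGG, beside 32.7% of all 32851 windows of the same length, while CCAAT (34.2% against 33.8%) and TATAAA (13.2% against 12.4%) stood at about the general share. The collagen windows were also richer in G and C, with a median of 59% beside 52.4% in all windows. The part of this in the GGGCGG share was not tested. GGGCGG was present in 9 of 16 windows of called-higher and in 8 of 13 windows of called-lower collagen genes, and CCAAT in 8 of 16 and 2 of 13. A match is only a match of letters.

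The non-collagen partners of the basement membrane moved in both directions. Lamb3 and Lama3 encode laminin chains and rose by 3.51 ± 0.047 and 1.10 ± 0.21 (adjusted p = 4.50e-07 and 0.00693). Itgb4 and Itga6, the hemidesmosomal integrin, rose by 2.61 ± 0.082 and 1.01 ± 0.027 (adjusted p = 6.43e-06 and 3.38e-06). Dst, a plakin of the hemidesmosome, fell by 0.25 ± 0.024 (adjusted p = 0.000417) and was at 0.17 with spike-in scaling. Lama3, Itgb4, Itga6 and Dst were named as partners. All 5 belong to a list of 21 basement membrane partners, of which 12 were higher and 8 lower, with a median of 0.18. That is 57.1% higher and 38.1% lower, beside 27.9% and 32.5% of all genes tested. With spike-in scaling 16 were higher and 4 lower, where 72.5% of all genes were higher and 7.95% lower. By smallest p the list was led by a fall of Nid2, a nidogen that links laminin to type IV collagen, by 2.45 ± 0.026. Lamb3 came next and then Lama1, which rose by 2.25 ± 0.043.

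FACIT collagens, which lie on the surface of fibrils, moved in both directions. Of 6 tested, 3 were higher and 3 lower (50% each, beside 27.9% and 32.5% of all genes). Among the lower, only Col14a1 fell by more than 2-fold. The 3 chains of type IX collagen, the FACIT of cartilage and the eye, all rose. Of these, Col9a3 passed the filter through the knockout arrays alone, so a rise was the only change it could show. Col9a2 gave -1.29, -1.30 and -1.23 on the hetero arrays and 0.51, 0.48 and 0.41 on the knockout arrays, a 3.35-fold rise (adjusted p = 1.65e-06). Col9a1 gave -2.99, -2.75 and -2.69 on the hetero arrays and -0.56, -0.51 and -0.51 on the knockout arrays on its brighter probe, a 4.88-fold rise (adjusted p = 1.06e-05). Col9a3 gave -5.08, -6.17 and -5.59 on the hetero arrays and -1.88, -1.86 and -1.98 on the knockout arrays, and since no hetero array was well above background its rise is at least 10.4-fold (adjusted p = 0.000161). In all 3 genes every knockout array lay above every hetero array. With normexp the Col9a3 log2 difference was 1.11.

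As with Col4a6, the second probe of Col9a1 did not show the rise. It differed by -0.11 ± 0.13 on the log2 scale (adjusted p = 0.533 over all probes), above background on all 6 arrays and assigned to the same transcript accession. With the 2 probes averaged, Col9a1 rose by 1.09 (adjusted p = 5.64e-05).

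Col14a1, the FACIT of skin and tendon fibrils and a gene of matrix fibroblasts, moved the other way. It gave 2.38, 2.36 and 2.45 on the hetero arrays and 0.78, 0.79 and 0.85 on the knockout arrays, a 3.01-fold fall (adjusted p = 1.64e-06), with no overlap of the groups, and its second probe fell by 1.09 ± 0.051. Col16a1 and Col20a1 were lower by 1.21-fold and 1.28-fold (adjusted p = 0.000359 and 0.00394), and both changed sign under spike-in scaling (0.14 and 0.061).

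The short-chain collagens, which form hexagonal networks, were higher in each of the 3 genes, while 27.9% of all genes tested were higher. Col10a1 passed the filter through the knockout arrays alone, so a rise was the only change it could show. Col8a1, a chain of type VIII collagen known from vessel walls and the cornea, gave -0.74, -0.56 and -0.70 on the hetero arrays and 2.10, 2.19 and 1.86 on the knockout arrays, a 6.56-fold rise (adjusted p = 1.13e-05). Its partner chain Col8a2 rose by 0.75 ± 0.050 on its brighter probe, a call that was lost when its probes were averaged (adjusted p = 0.127). Col10a1, the collagen of hypertrophic cartilage, gave -7.05, -5.26 and -5.86 on the hetero arrays and -2.59, -2.92 and -2.78 on the knockout arrays. Hetero replicate 1 was the dimmest, and all knockout arrays lay above all hetero arrays. No hetero array was well above background, so that the gene was at least 6.8-fold higher (adjusted p = 0.00201), with a log2 difference of 0.65 under normexp.

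Col2a1, Col9a1, Col9a2, Col9a3, Col10a1 and Col11a1, 6 collagens known from cartilage, were thus higher in knockout spheres, while Col11a2 and Col27a1, also known from it, were not. Col2a1, Col9a3 and Col10a1 passed the filter through the knockout arrays alone, so a rise was the only change they could show. The Col9a1 rise rests on 1 of 2 probes, and the Col2a1 call was lost when some single arrays were left out. Of 7 non-collagen cartilage markers listed, 4 were tested, of which 1 was called higher and 1 lower (50% called, beside 60.4% of all genes). Sox9, the transcription factor of cartilage that epithelia also express, rose by 0.36 ± 0.033 (adjusted p = 0.000341), and Acan, the cartilage proteoglycan, fell by 0.36 ± 0.12 (adjusted p = 0.0434), a call lost without any one of hetero replicates 1, 2 and 3 or knockout replicates 2 and 3 (adjusted p 0.0831 to 0.116) and turned to 0.056 by spike-in scaling. Hapln1 and Comp were not called (0.81 ± 0.28 and 0.020 ± 0.25, adjusted p = 0.0533 and 0.952), though Hapln1 was called higher without hetero replicate 2 (0.99) or 3 (0.51) and under spike-in scaling. Matn1, Matn3 and Cnmd did not pass the filter on dim probes.

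Of the transmembrane collagens other than Col17a1, Col23a1 fell and Col25a1 was not called. Col23a1 gave 4.21, 4.25 and 4.21 on the hetero arrays and 2.97, 2.93 and 2.98 on the knockout arrays, a 2.4-fold fall (adjusted p = 1.34e-06), with all knockout arrays under all hetero arrays and its other 2 probes at -1.08 ± 0.026 and -0.78 ± 0.061. Col25a1, a collagen of neurons, differed by -0.12 ± 0.17 with overlapping groups (adjusted p = 0.548). Col13a1 was too dim to test.

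The multiplexins, basement membrane collagens whose ends can be cut off as the antiangiogenic fragments endostatin and restin, moved in opposite directions. Col18a1, the source of endostatin, gave 5.52, 5.46 and 5.56 on the hetero arrays and 5.04, 5.01 and 5.08 on the knockout arrays, a 1.38-fold fall (adjusted p = 0.000214) that did not pass under spike-in scaling (-0.048, adjusted p = 0.347). Col15a1 rose by 0.67 ± 0.036 (adjusted p = 4.31e-05), and its 3 probes gave 0.67 ± 0.039, 0.78 ± 0.040 and 0.76 ± 0.039.

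Col26a1, a short collagen outside these classes, was the largest fall among the collagen genes measured on both sides. It gave -1.25, -1.37 and -1.34 on the hetero arrays and -3.49, -3.76 and -3.58 on the knockout arrays, a 4.9-fold fall without overlap (adjusted p = 9.13e-06), with a log2 difference of -1.30 under normexp.

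Several probes per gene allowed a check of 10 collagen genes. Of 49 collagen probes kept by the filter, 19 were called higher, 19 lower and 11 were not called, where 47.0% of all 35427 kept probes were called. Col14a1, Col15a1, Col18a1 and Col23a1 gave the same direction on each of their kept probes, all called. Col4a6, Col8a2, Col9a1 and Col20a1 had 1 called and 1 uncalled probe, the latter on Col20a1 with nearly the same difference (-0.37 ± 0.22). Neither of the 2 kept Col4a4 probes was called. Col16a1 alone had probes called in opposite directions, 2 lower (-0.28 ± 0.030 and -0.25 ± 0.048) and 1 higher (0.20 ± 0.037).

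**Figure D2:**
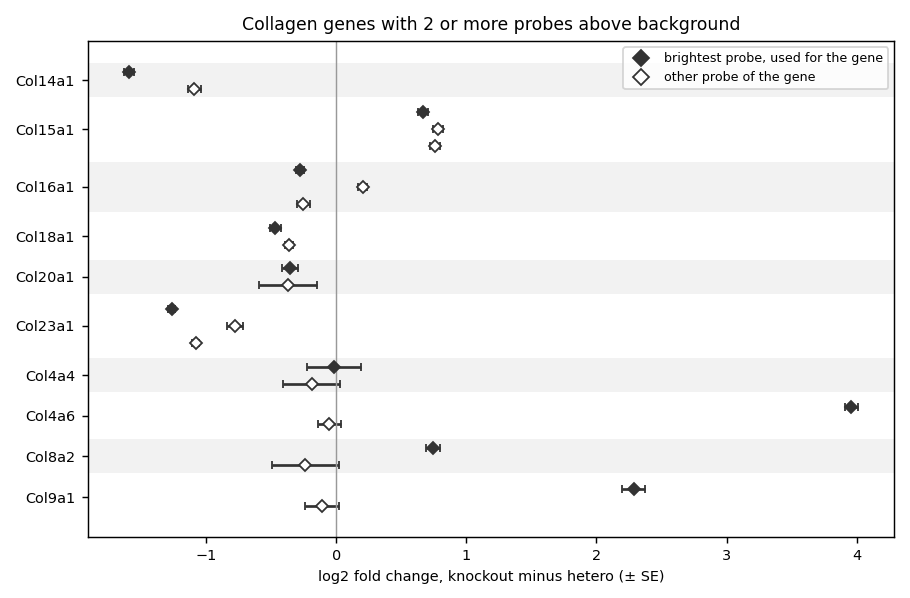
Log2 fold change (knockout minus hetero, horizontal axis, bars are the SE of the fit) of each kept probe of the 10 collagen genes with 2 or more. Filled symbols are the brightest probe, which stands for the gene, and open symbols the others; the open symbols of Col4a6 and Col9a1 lie near 0 while the filled ones lie at 3.96 and 2.29.

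The 7 collagen genes left untested were Col4a3, Col6a4, Col6a6, Col13a1, Col19a1, Col22a1 and Col28a1. Their 9 probes were well above background on at most 2 of 6 arrays. Col13a1 reached this on 2 knockout arrays and no hetero array, Col4a3 and Col19a1 on 1 hetero array each, 1 Col6a6 probe on 1 knockout array, and the rest on none.

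The direction of the small falls depended on how arrays were scaled, and 7 spike-in probes gave a different reference from the 75th percentile. With spike-in scaling the all-gene median of the log2 difference was 0.39 in place of -0.03. The collagen counts then were 23 higher and 7 lower in place of 17 and 15, while all genes went from 4416 higher and 5155 lower to 11490 (72.5%) and 1259 (7.95%). Col1a1, Col5a2, Col6a1, Col6a2, Col6a3, Col16a1 and Col20a1 changed sign. Col3a1, Col5a1, Col27a1, Col14a1, Col23a1, Col26a1 and Col6a5 were called lower under both.

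**Figure D3:**
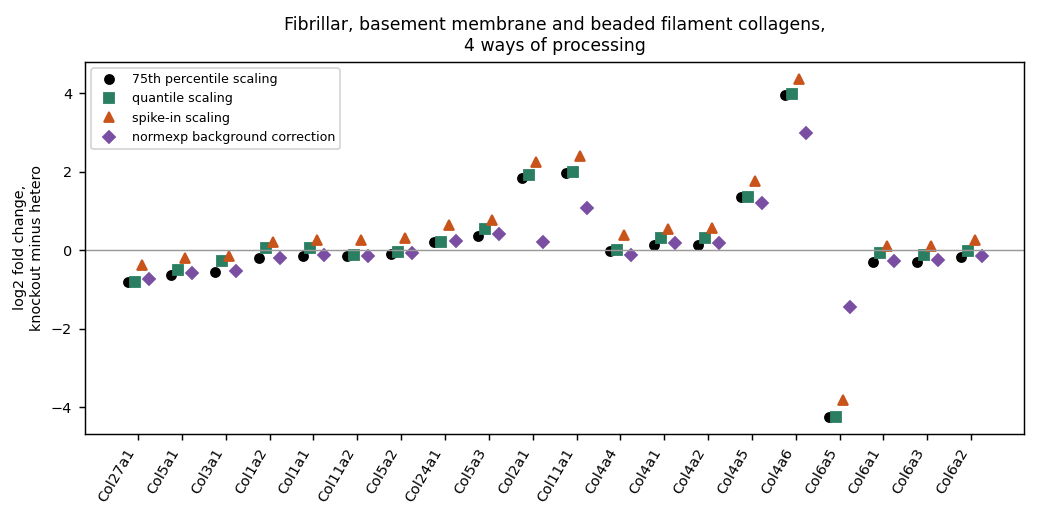
Log2 fold change (knockout minus hetero, vertical axis) of the 20 fibrillar, basement membrane and beaded filament collagen genes under 75th percentile scaling, quantile scaling, spike-in scaling and normexp background correction. Points near 0, such as those of Col1a1 and Col6a2, cross the zero line with the scaling, while Col4a5, Col4a6, Col11a1 and Col6a5 keep their side in all 4.

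Genes that make collagen were mostly slightly lower in knockout spheres under 75th percentile scaling, but not under spike-in scaling. Of 15 genes for prolyl and lysyl hydroxylation, the modifications that stabilise the helix and prepare cross-links, 10 were lower and 0 higher by limma's adjusted p, with a median of -0.39. The 66.7% lower in this list stands beside 32.5% of all genes tested. Plod1, a lysyl hydroxylase, and P4ha2 and P4ha1, the catalytic subunits of prolyl 4-hydroxylase, fell by 0.72 ± 0.028, 0.79 ± 0.034 and 0.60 ± 0.034, and P3h3 by 0.53 ± 0.022. Of 14 chaperone and secretion genes, 8 were lower and 2 higher (median -0.15), 71.4% called beside 60.4% of all genes, and 57.1% lower beside 32.5%. Creb3l1, a transcription factor that acts on collagen secretion, fell by 0.63 ± 0.029, Tent5a by 0.59 ± 0.029, Serpinh1, the collagen chaperone HSP47, by 0.20 ± 0.024 and Sec24d by 0.27 ± 0.033. Under spike-in scaling Serpinh1 and Sec24d were at 0.21 and 0.14.

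Propeptide processing and cross-linking genes followed. Of 8 tested processing genes 5 were lower and 2 higher (median -0.32). That is 62.5% and 25%, beside 32.5% and 27.9% of all genes. Falls were 0.97 ± 0.028 for Adamts2, which trims the amino end of fibrillar procollagens, and 0.40 ± 0.025 for its relative Adamts14. The enhancer Pcolce fell by 0.32 ± 0.021 and Bmp1, which trims the carboxyl end, by 0.44 ± 0.031. Both risers, Mep1a and Pcolce2 (1.20 ± 0.32 and 0.34 ± 0.087), lost their calls whichever knockout array was left out (adjusted p 0.0509 to 0.0715 for Mep1a and 0.0539 to 0.0608 for Pcolce2), and Pcolce2 also without hetero replicate 1 (adjusted p = 0.0638). All 5 lysyl oxidases, the enzymes that cross-link fibrils, were lower (median -0.33), beside 32.5% of all genes. Loxl1 and Lox fell by 0.70 ± 0.030 and 0.45 ± 0.027, Loxl4 by 0.33 ± 0.048 and Loxl2 by 0.088 ± 0.023, the last turning to 0.083 with quantile scaling. Loxl2 lost its call without hetero replicate 1 or 3 or knockout replicate 1 or 2, and Loxl3 without knockout replicate 2 or 3 (without knockout replicate 2, adjusted p = 0.0668 and 0.0667). Under spike-in scaling these lists changed to 6 higher and 5 lower for hydroxylation, 12 and 2 for chaperones, 4 and 1 for processing and 2 and 1 for cross-linking, with Adamts14, Pcolce, Loxl4 and Loxl2 at 0.016, 0.097, 0.090 and 0.33. Over all genes that scaling gave 72.5% higher and 7.95% lower.

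Receptors and binding partners were divided. Collagen receptors were higher in 7 of 12 tested and lower in 4 (median 0.35), that is 58.3% higher beside 27.9% of all genes, and 33.3% lower, near the 32.5% of all genes. With spike-in scaling 8 were higher and 3 lower, where 72.5% of all genes were higher and 7.95% lower. The receptor kinase Ddr1 of epithelia rose by 0.72 ± 0.037, while its mesenchymal counterpart Ddr2 fell by 0.50 ± 0.022 and the fibroblast integrin Itga11 by 0.65 ± 0.026. Cspg4, a proteoglycan that binds type VI collagen, and Adgrg1, the adhesion receptor for type III collagen, rose by 1.74 ± 0.027 and 2.85 ± 0.049. Ddr1 was named as the partner of Ddr2.

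Of 19 tested collagen-binding proteoglycans and fibril regulators 12 were lower and 3 higher (median -0.42). That is 63.2% and 15.8%, beside 32.5% and 27.9% of all genes. With spike-in scaling, however, 6 were lower and 7 higher, beside 7.95% and 72.5% of all genes. Tnxb, tenascin-X, which spaces fibrils, fell by 3.14 ± 0.028, Podn by 2.60 ± 0.066 and Fbln1 by 1.40 ± 0.032, while Thbs1, thrombospondin 1, rose by 2.12 ± 0.034. Collagenases and turnover genes were higher in 8 of 13 and lower in 4 (median 0.27). That is 61.5% and 30.8%, beside 27.9% and 32.5% of all genes. With spike-in scaling 11 were higher and 2 lower, beside 72.5% and 7.95% of all genes. The membrane protease Mmp15 rose by 2.96 ± 0.061, the interstitial collagenase Mmp1a by 1.12 ± 0.040 and the gelatinase Mmp9 by 0.47 ± 0.022, and Mmp2 fell by 0.89 ± 0.032.

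**Figure D4:**
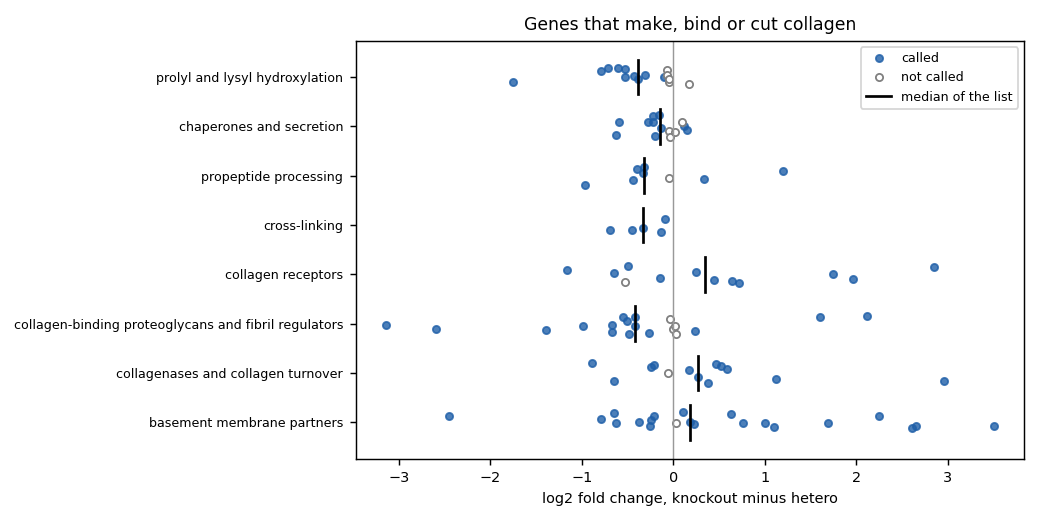
Log2 fold change (knockout minus hetero, horizontal axis) of each tested gene in 8 lists of genes that make, bind or cut collagen; filled points were called and open points were not, the vertical spread within a row carries no value, and bars are list medians. The medians of the 4 lists of collagen production lie between -0.39 and -0.15 with 75th percentile scaling.

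Cell type markers moved with genotype as well, and each count below stands beside 27.9% of all genes higher and 32.5% lower. The 9 luminal epithelial markers were well above background on all 6 arrays. All 9 luminal epithelial markers rose, from a summed scaled signal, in units of the array's 75th percentile, between 11.8 and 12.2 in hetero to one between 129 and 132 in knockout spheres. Basal epithelial markers rose in 7 of 9 tested and fell in 1, from 21.5 to 21.6 up to 94.8 to 95.2, with Krt14 and Krt5 up by 2.97 ± 0.022 and 2.45 ± 0.022 and Trp63 not called (-0.0033 ± 0.060, adjusted p = 0.967). Myh11 did not pass the filter. These rises stand beside those of Col17a1, Col7a1, Col4a5 and, on 1 of 2 probes, Col4a6.

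Fibroblast markers other than collagens were lower in 6 of 10 and higher in 4, with a sum of 1297 to 1346 on hetero and 948 to 966 on knockout arrays. The falls included Dpt (-1.61 ± 0.023) and Pdgfra (-1.32 ± 0.026) and the rises Thy1 (2.29 ± 0.024), beside the falls of Col3a1, Col5a1, Col6a1 and Col14a1. Dcn, Lum and Fbln1 of this list also stand among the collagen-binding genes, and Fap among the turnover genes. All 8 tested macrophage markers fell, from sums of 19.7 to 20.1 to sums of 7.54 to 7.63, with Adgre1 down by 2.48 ± 0.033, and Cd68 did not pass the filter.

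Other marker lists moved as well, though 60% of the tested pericyte and of the tested adipocyte markers were called, near the 60.4% of all genes. Pericyte markers summed to 11.6 to 11.8 on hetero and 25.2 to 25.6 on knockout arrays. Of 5 tested, 3 were higher, Cspg4, Notch3 and Mcam, and Rgs5 was not called, while Kcnj8 was too dim to test. Mcam lost its limma call under median scaling (adjusted p = 0.171). Its call was also lost without any one of hetero replicates 1, 2 and 3 or knockout replicates 2 and 3 (adjusted p 0.0515 to 0.0745). Cspg4 also stands among the collagen receptors. Endothelial markers summed to 27.2 to 27.7 and 21.7 to 22.8, with 2 of 8 higher and 3 lower, 62.5% called, near the 60.4% of all genes. With spike-in scaling 6 of 8 endothelial markers were higher and 0 lower by limma, where 72.5% of all genes were higher and 7.95% lower. The Schwann and neural crest list went from 5.41 to 5.61 up to 8.66 to 8.68 (4 of 7 higher, 2 lower), with Sox10 up by 3.05 ± 0.031. The tested cartilage markers went from 2.47 to 2.60 up to 3.19 to 3.26, a sum that weighs its brightest members most. Of these 4 markers Sox9 was called higher, Acan lower and 2 were not called (50% called, beside 60.4% of all genes). Adipocyte markers went from 12.5 to 13.0 down to 9.76 to 9.86 (0 of 5 higher, 3 lower, and 2 and 1 with spike-in scaling). The part of these cell types in the collagen differences was not tested.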

How the data were processed

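Each of 6 RNA samples of spheres, Cy3-labelled, was run on its own single-colour Agilent array. The software that read the spots was Agilent Feature Extraction, version 10.7.3.1 per the submitters' processing notes. The deposited intensity used is the processed signal, background-subtracted and detrended within the array by the authors' software, with no scaling between arrays, per the file headers. Control spots and 102 to 129 outlier-flagged spots per array were left out, and spots of a probe were averaged as log2. RefSeq accessions were matched to symbols of a GRCm38.p6 gene table (27235 of 55681 probes). Its coordinates served only to find genes overlapping the promoter windows. No probe was placed by them, because the headers name mm9.

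Signals were scaled to the 75th percentile of each array. Probes well above background on at least 3 of 6 arrays were kept (35427), and the brightest represented its gene (15838 genes). Knockout minus hetero differences were tested in limma 3.58.1 (R 4.3.3, lmFit then eBayes) without covariates and with Benjamini-Hochberg adjustment over all genes, or over all kept probes for probe values. The fit was tested on simulated data. The collagen genes, the other gene lists, and the alternatives were chosen with earlier results of these data known. Values on every array are given for collagens changed at least 2-fold or bounded and for Col1a1, Col1a2, Col3a1, Col4a1, Col4a2, Col7a1, Col17a1 and Col18a1, and up to 4 members with the smallest p per other list, with partner chains added where said; 1 list member is not reported here.

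Alternatives were quantile, median and spike-in scaling, normexp (run on median spot signals), no filter or all 6 arrays, averaged probes, the deposited value table, replicate or slide row blocks, and each array left out. The deposited table equals the processed signal divided by 1 constant per array (402 to 484). Its column medians, on a linear scale and not centred by gene, were 0.159 to 0.169. All arrays lay on 1 slide, and each slide column held 1 genotype, so column and genotype cannot be told apart.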

Additional observations from a re-analysis of the deposited data

How the results depend on the processing

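Of the 32 collagen calls, 19 kept their direction and their call under every alternative that gave them a value, those of Col3a1, Col4a5, Col4a6, Col5a1, Col5a3, Col6a5, Col7a1, Col8a1, Col9a1, Col9a2, Col9a3, Col10a1, Col11a1, Col14a1, Col15a1, Col17a1, Col23a1, Col26a1 and Col27a1. That was all 16 alternatives except for Col6a5, Col9a3 and Col10a1, which dropped out, as did Col2a1, when signal above background on all 6 arrays was required. The Col4a6 and Col9a1 rises rest on 1 of 2 probes. The share of all called genes that kept their calls under every alternative was not counted, so 19 of 32 has no general share beside it. Over the alternatives, 27 to 32 collagen genes were called, and 7069 to 12749 of all genes. With spike-in scaling 7 collagen genes were lower, and over all genes 11490 were higher and 1259 lower. Under that scaling the log2 differences of Col1a1, Col5a2, Col6a1, Col6a2, Col6a3, Col16a1 and Col20a1 turned to 0.26, 0.33, 0.11, 0.26, 0.12, 0.14 and 0.061, and the class medians of fibrillar, beaded filament and transmembrane collagens to 0.27, 0.11 and 0.29. Quantile scaling turned Col1a1 to 0.064 and the fibrillar median to 0.06. The transmembrane median was 0.19 with no filter, and the FACIT median was -0.32 with no filter and -0.28 over genes above background on all 6 arrays, since other members then enter or leave. The replicate numbers did not pair the samples (correlations of deviations -0.12, -0.02 and -0.01). With the replicate block 28 collagen genes and 8496 of all genes were called, and the calls of Col2a1, Col4a2, Col5a2 and Col24a1 were lost. Leaving out each array in turn gave 29 to 31 collagen calls, 15 to 17 higher and 14 to 15 lower, and 8558 to 8945 calls over all genes. For the other changes the cause was not tested. Signal over background limits Col2a1, Col6a5, Col9a3 and Col10a1, for which the text gives lower bounds on the fold.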
